A study of Mus musculus with 24 samples.

Results

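In dorsal root ganglia (DRGs), 10 receptor genes were followed after a sciatic nerve lesion. They encode the opioid receptors (*Oprm1*, *Oprd1*, *Oprk1* and *Oprl1*), the cannabinoid receptor *Cnr1*, the neuropeptide Y receptors *Npy1r* and *Npy2r*, the galanin receptors *Galr1* and *Galr2*, and the cholecystokinin receptor *Cckbr*. They were taken by gene name from the array annotation, with every probe that was not a control spot, which gave 10 of 27398 gene names and 14 of 41174 probes. RNA of L4 and L5 DRGs from adult male C57BL/6J mice was hybridized to Agilent 4x44K arrays in 6 groups of 4 samples. *Nfil3* KO mice and their *Nfil3* WT littermates were each studied as control, at day 2 and at day 5. The KO allele was made with a Cre transgene under a human CMV promoter that acts in germ cells, so the deletion was present in all tissues and not in neurons alone. In the lesioned groups the left sciatic nerve had been cut and rejoined. By the methods the control DRGs came from the non-injured side, which would leave no group of unoperated mice. The control titles read Day0, and the day at which these DRGs were taken is not stated. The methods describe fentanyl in the anesthesia and daily buprenorphine until 3 days after the operation. Both drugs act on opioid receptors, the one that *Oprm1* encodes among them. By that schedule day 2 lay within the buprenorphine period and day 5 after it, so time after the lesion and drug cannot be told apart. The labels do not say which controls and lesioned DRGs shared a mouse, and p-values measure the spread between these samples.

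All 10 are G protein-coupled receptors. Opioid, cannabinoid and neuropeptide Y receptors signal mostly through inhibitory G proteins, which lower cyclic AMP, open inwardly rectifying potassium channels and close presynaptic calcium channels. On the central endings of nociceptors they thereby reduce the release of transmitter, and they are targets of analgesic drugs. *Galr1* shares this coupling, whereas *Galr2* and *Cckbr* act largely through Gq and intracellular calcium, and *Cckbr* is known for opposing opioid analgesia.

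Values are log2 intensities after background correction and quantile normalization over the 24 samples. The brightest probe of a gene, by its mean over all samples, stands for the gene, and other probes are given beside it. A gene was called higher or lower where limma gave that probe a Benjamini-Hochberg adjusted p below 0.05 over all probes. The share of probes well above background ran from 54.6% to 72.4% of a sample, with 0 saturated spots. The labelled tissue was checked by its markers. All 9 sensory neuron markers were well above background in every sample, but so were all markers of satellite glia, Schwann cells, macrophages, endothelium and fibroblasts, as in a whole ganglion. *Nfil3* itself read 8.44 to 9.01 in WT controls and had a mean of 4.67 in KO controls. The library labelled KO control replicate 4 stood apart with an *Nfil3* level of 7.59 where the lowest KO control read 2.94, and another label field gives it as day 5. Its injury markers were toward the upper end of the other controls and below day 5, with *Atf3* at 9.66 against 7.25 to 9.98 in the other 7 controls and 13.4 to 13.9 at day 5. *Sprr1a* read 11.4 against 5.48 to 11.7 in these controls and 15.2 to 15.8 at day 5. *Cckbr*, at 6.54, was above all of these controls (4.13 to 6.36). Results are given with and without this library.

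For 3 of the genes the array held more than 1 probe, and their oligonucleotides are shown because the probes of a gene did not move alike. Each probe has 60 bases, written 5′ to 3′ in lower case. A probe from each gene that reads as receptor coding sequence is given whole, and the others, whose place in the transcript is not known here, as their first 30 bases. The array design gives the positions in mm9 and not whether a probe lies in a coding exon or a UTR.
Cckbr A_52_P596375, first 30 bases, chr7:112584581-112584640: ttatgggaaacatctttatctgtttgctcc
Cckbr A_51_P506201, whole, chr7:112582327-112582546: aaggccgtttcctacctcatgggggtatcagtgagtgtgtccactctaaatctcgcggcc
Oprl1 A_52_P99678, first 30 bases, chr2:181455275-181455334: agagtcgataccttggagatatattgttgg
Oprl1 A_52_P297290, whole, chr2:181450549-181450608: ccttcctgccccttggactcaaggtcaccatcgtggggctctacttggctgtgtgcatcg
Oprm1 A_51_P100309, whole, chr10:3516154-3516213: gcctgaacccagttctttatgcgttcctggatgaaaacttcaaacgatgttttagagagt
Oprm1 A_52_P498441, first 30 bases, chr10:3309054-3309111: agcctagccaccttacatgaagagtttcct
Oprm1 A_51_P118688, first 30 bases, chr10:3557952-3587890: gacagagagatggaaatcaagaggggaaga
The *Cckbr* probe A_51_P506201 spans 220 bases of the genome and the *Oprm1* probe A_51_P118688 spans 29939, so both join more than 1 block of sequence.

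The first question was which receptors changed in the DRG after the lesion, with WT and KO mice averaged. At day 2, 7 of the 10 genes were called, against 22.1% of all gene names. *Cckbr* and *Npy2r* were higher, and *Oprm1*, *Oprk1*, *Oprl1*, *Galr1* and *Cnr1* were lower, where 9.48% of all gene names were higher and 12.7% lower. At day 5, 6 of the 10 were called, against 23.2% of all gene names (10.2% higher and 13% lower). *Cckbr* and *Npy2r* were again higher, and *Oprm1*, *Oprk1*, *Oprl1* and *Galr1* lower, whereas *Cnr1* did not pass. The median difference over the 10 genes was -0.40 at day 2 and -0.27 at day 5, beside -0.02 and -0.03 over all gene names. Both days were set against the same 8 controls, and in whole ganglia fewer cells of a type and less RNA per cell cannot be told apart. At day 2, control and lesioned samples did not overlap in 2 of the 10 genes (*Oprl1* and *Cckbr*), against 6.55% of all gene names, and at day 5 in 4 (these, *Oprm1* and *Oprk1*), against 11.7%. Without the library labelled KO control replicate 4, 6 genes were called at day 2, where *Oprm1* no longer passed (-0.58, adjusted p = 0.0518), and 5 at day 5, where *Npy2r* no longer passed (0.34, adjusted p = 0.0512). The other calls named here held without it, and the *Cckbr* differences were then 4.68 at day 2 and 5.65 at day 5.

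Cell type markers moved with the lesion as well. Over all gene names, 9.48% were higher and 12.7% lower at day 2, and 10.2% and 13% at day 5. Of 9 sensory neuron markers, 7 were lower at day 2, and 5 lower and 1 higher at day 5, with a median difference of -0.55 and -0.68. The log2 of their summed intensity ran from 18.3 to 18.5 in controls, 18.2 to 18.4 at day 2 and 18.1 to 18.4 at day 5. Such a sum follows the brightest markers of a list, so it does not show how most of them moved. Of 5 macrophage markers, 4 were higher at day 2 and 5 at day 5, with summed levels of 9.80 to 10.7 in controls, 10.4 to 11.3 at day 2 and 11.4 to 11.99 at day 5. None of 4 T cell markers passed at either day. Of 3 non-peptidergic nociceptor markers, 1 was higher and 1 lower at day 2 and 1 lower at day 5, and of 4 markers of large-diameter neurons 3 were lower at day 2 and 1 at day 5. Of 4 satellite glia markers, 1 was higher and 2 lower at day 2, and 1 was higher and 1 lower at day 5. At day 2, 1 of 4 Schwann cell and 1 of 3 endothelium markers were higher and 0 of 3 fibroblast markers passed, and at day 5 these were 0, 0 and 1. None of 3 skeletal muscle markers passed. Of 3 spinal cord markers, *Olig1* and *Slc6a5* were well above background in 0 of 24 samples, and *Gfap*, which is also made by glia of the ganglion, in 18 of 24, with a rise of 1.43 at day 2 and 1.22 at day 5. The part of these shifts in the receptor values was not tested.

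**Figure D1:**
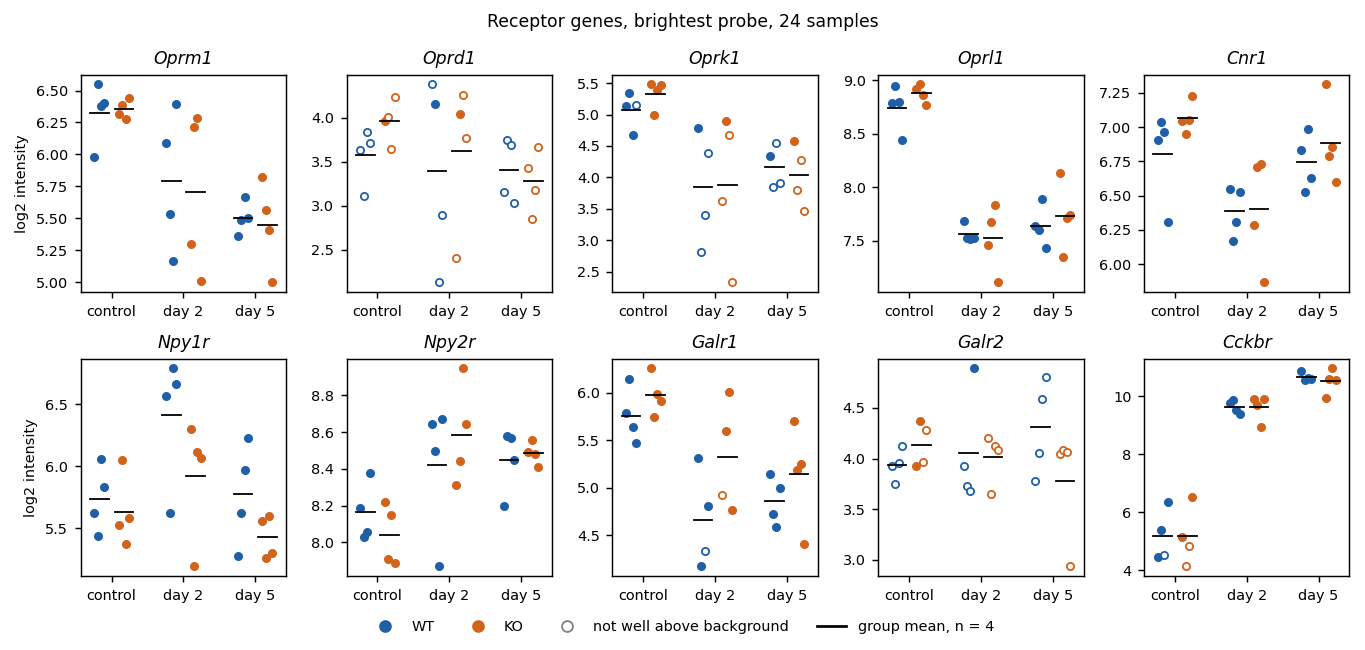
Log2 intensity (vertical axes, each panel with its own range) of the brightest probe of the 10 receptor genes in control DRGs and at day 2 and day 5, for WT (blue) and KO (orange) samples, with group means as bars and open circles for values not well above background. Cckbr was higher in every lesioned sample than in every control and Oprl1 was lower, while the day 2 samples of Oprm1, Oprk1 and Galr1 spread widely.

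**Figure D2:**
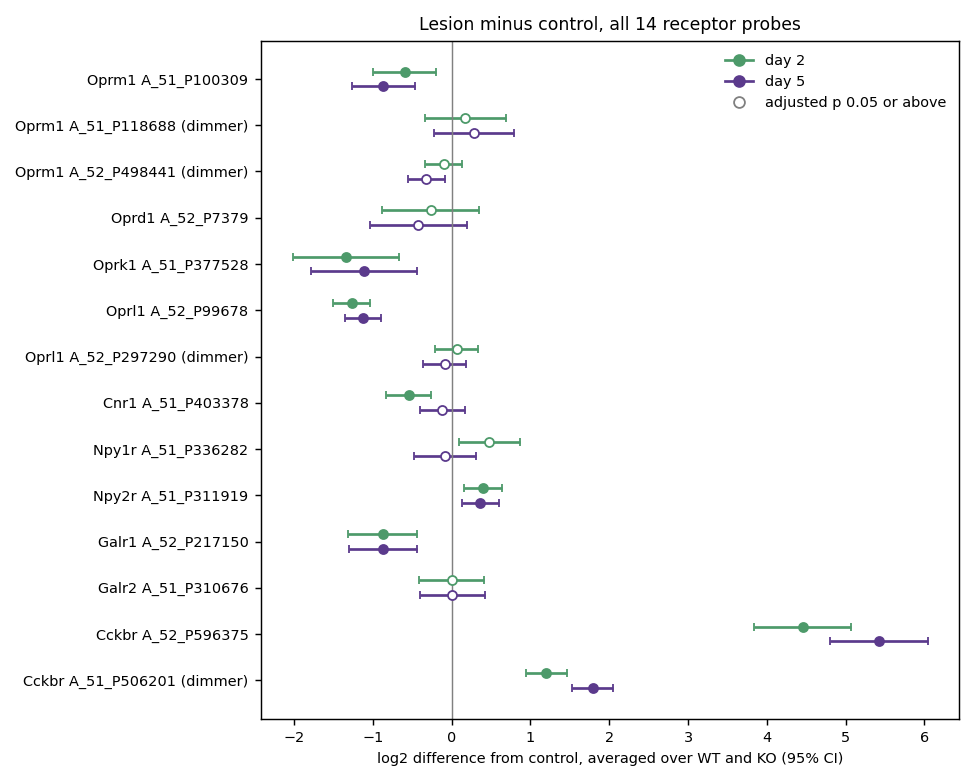
Log2 difference from control (horizontal axis) at day 2 (green) and day 5 (purple), averaged over WT and KO, for the 14 probes, with 95% confidence intervals and filled circles for an adjusted p below 0.05. The Cckbr probe A_52_P596375 lies at 4.45 and 5.42, and the Oprl1 and Oprm1 probes differ from one another within a gene.

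The samples shared arrays, and this is given first because several receptors moved with it. Each array carried one sample in the Cy3 and another in the Cy5 channel. For 12 of the 24 samples the array partner was of the same time point, and for the other 12 of another time point. These classes held 4 samples of each time point. The differences of the receptors are therefore also given within each class of 12 samples, a split chosen after the data had been seen. Each pair of the same time point joined a WT and a KO sample, and each other pair joined samples of the same genotype. At day 5 all samples with a same-time-point partner were on slide 1, and the others were on slides 2 and 3. The time point and the genotype of the partner, and at day 5 the slide, cannot be told apart here. Slide 1 held 1 day 2 sample, so day 2 differences within that slide rest on 1 library. Over all probes, 13.2% were called at day 2 and 9.22% at day 5 among samples with a partner of the same time point, against 2.88% and 9.72% among the others.

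*Oprm1* encodes the mu opioid receptor, the site at which morphine and endorphins act. In WT samples its brightest probe, A_51_P100309, read 5.98, 6.55, 6.38 and 6.41 in controls, 6.09, 5.53, 5.16 and 6.40 at day 2, and 5.36, 5.49, 5.67 and 5.50 at day 5. KO samples read 6.32, 6.39, 6.28 and 6.44 in controls, 5.30, 6.21, 6.29 and 5.01 at day 2, and 5.82, 5.57, 5.41 and 5.00 at day 5. Every day 5 sample lay below every control, while at day 2 each genotype had 2 samples below all controls and 2 within the control range. The difference was -0.59 (SE 0.19, adjusted p = 0.0306) at day 2 and -0.87 (SE 0.19, adjusted p = 0.00196) at day 5. The day 2 samples with a day 2 partner read 5.01 to 5.53 and those with another partner 6.09 to 6.40, which gave differences of -1.01 (adjusted p = 0.00777) and -0.18 (adjusted p = 0.593) within the classes, so the day 2 call rests on the former. At day 5 the differences were -0.69 (adjusted p = 0.0411) and -1.04 (adjusted p = 0.00494). With array and dye as fixed terms the day 2 difference was -0.06 (adjusted p = 0.886), and with slide as a block it was -0.58 (adjusted p = 0.0509). Within the slides the day 2 difference ran from -0.85 to 0.10, the latter on slide 1. The day 5 difference ran from -1.21 to -0.63.

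The other *Oprm1* probes did not pass. A_52_P498441, with values of 4.43 to 5.36 in all 24 samples, differed by -0.10 (SE 0.11, adjusted p = 0.602) at day 2 and -0.32 (95% CI -0.56 to -0.08, adjusted p = 0.0516) at day 5, lower on 3 of 3 slides. A_51_P118688 differed by 0.17 (SE 0.25, adjusted p = 0.699) and 0.29 (SE 0.25, adjusted p = 0.499), with 15 of 24 samples well above background. With the 3 probes averaged, *Oprm1* differed by -0.17 (adjusted p = 0.447) at day 2 and -0.30 (adjusted p = 0.15) at day 5, so neither call held. *Oprm1* is known to be spliced into many transcripts, and which of them each probe detects was not tested.

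*Oprk1* encodes the kappa opioid receptor, which binds dynorphins. In WT samples it read 5.14, 5.35, 4.67 and 5.16 in controls, 4.78, 2.82, 3.41 and 4.38 at day 2, and 4.35, 3.84, 4.55 and 3.92 at day 5. KO samples read 5.48, 4.99, 5.40 and 5.47 in controls, 3.63, 4.89, 4.68 and 2.33 at day 2, and 4.59, 3.80, 4.28 and 3.46 at day 5. All day 5 values lay below all controls, and at day 2 the highest values reached into the control range. *Oprk1* fell by 1.34 (SE 0.32, adjusted p = 0.00462) at day 2 and by 1.11 (SE 0.32, adjusted p = 0.0155) at day 5. Under the 43 alternatives of processing and samples given below, *Oprk1* differed by -2.00 to -0.33 at day 2 and -1.67 to -0.32 at day 5. It lost its call in 1 of them at day 2 and in 3 at day 5. In 7 of 8 controls it was well above background, but in 2 of 8 samples at each day after the lesion, so the low values are close to what the arrays can measure. The difference at day 2 was -2.00 (adjusted p = 0.0053) in samples with a partner of the same time point and -0.68 (adjusted p = 0.0434) in the others, and at day 5 -0.61 (adjusted p = 0.276) and -1.61 (adjusted p = 0.000628).

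*Oprl1* encodes the receptor for nociceptin, also called orphanin FQ. Its brightest probe, A_52_P99678, read 8.79, 8.95, 8.80 and 8.44 in WT controls, 7.69, 7.53, 7.51 and 7.53 at day 2, and 7.64, 7.60, 7.89 and 7.43 at day 5. In KO samples it read 8.92, 8.96, 8.86 and 8.77 in controls, 7.46, 7.68, 7.83 and 7.11 at day 2, and 8.13, 7.35, 7.71 and 7.74 at day 5. No lesioned sample reached the lowest control at either day, where the groups were apart in 6.55% of all gene names at day 2 and 11.7% at day 5. The probe fell by 1.27 (SE 0.11, adjusted p = 6.56e-08) at day 2 and by 1.12 (SE 0.11, adjusted p = 2.57e-07) at day 5, a 2.41-fold and a 2.18-fold lower intensity. *Oprl1* was lower on 3 of 3 slides at both days, with 1 day 2 sample on slide 1. It passed in both partner classes, with differences of -1.45 and -1.09 at day 2 and -1.01 and -1.24 at day 5.

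The second *Oprl1* probe gave another picture. A_52_P297290 read 6.97 to 7.68 in controls, 7.11 to 7.61 at day 2 and 7.01 to 7.81 at day 5, and all 24 samples were well above background. It had a difference of 0.07 (95% CI -0.20 to 0.34, adjusted p = 0.788) at day 2 and of -0.09 (95% CI -0.36 to 0.18, adjusted p = 0.724) at day 5. These intervals do not reach the fall seen with A_52_P99678, so the fall is a result of that probe and not of all *Oprl1* sequence measured. A test of the difference between the probes was not run.

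*Oprd1*, the gene of the delta opioid receptor that binds enkephalins, was well above background in 3 of 24 samples. Its values ran from 2.13 to 4.38 over all samples and no group stood above background as a whole, so no fold is given. The test gave adjusted p-values of 0.606 at day 2 and 0.376 at day 5. In samples with a partner of the same time point the differences were -0.66 at day 2 and -0.41 at day 5, and in the others 0.14 and -0.44, none of which passed.

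**Figure D3:**
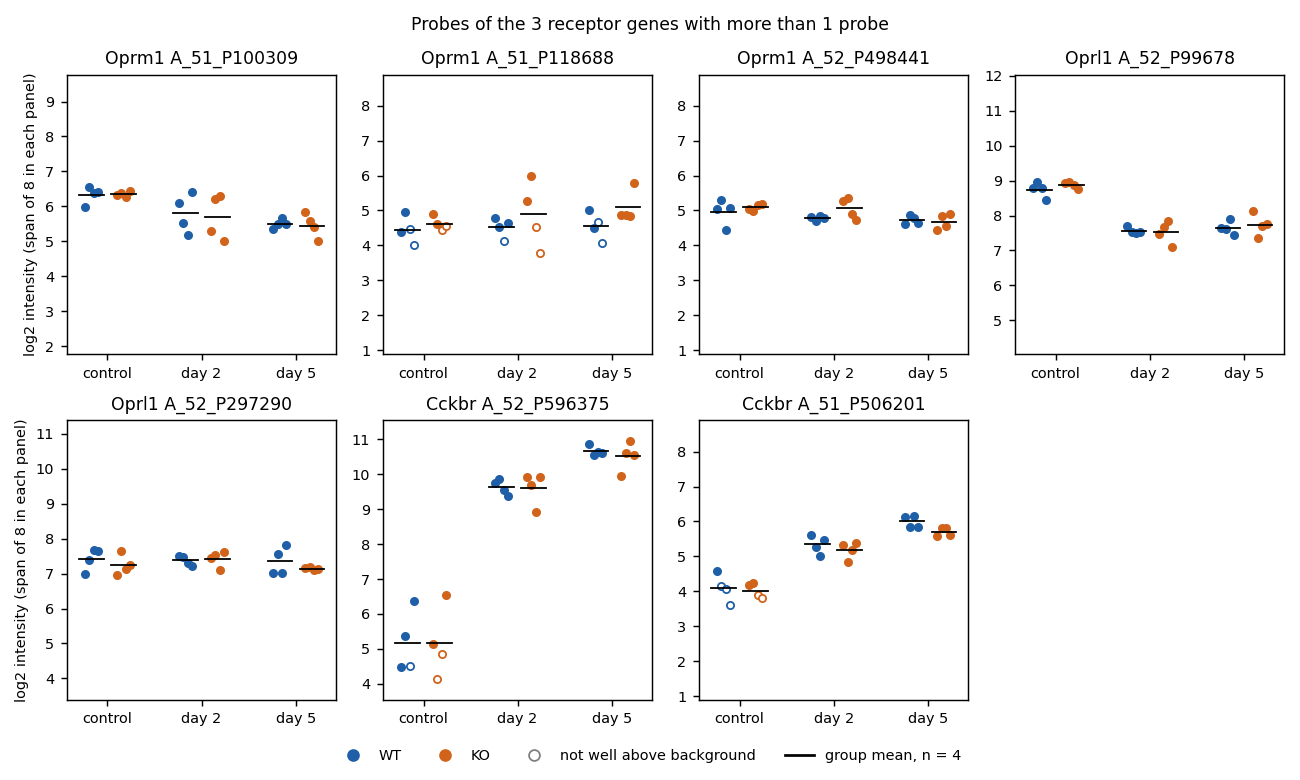
Log2 intensity of each probe of Oprm1, Oprl1 and Cckbr (vertical axes, each panel spanning 8 units) in control DRGs and at day 2 and day 5, for WT (blue) and KO (orange), with group means as bars and open circles for values not well above background. Oprl1 fell with A_52_P99678 (means 8.81 in controls and 7.54 at day 2) and not with A_52_P297290, and both Cckbr probes were higher after the lesion.

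*Cnr1* encodes the CB1 cannabinoid receptor, through which endocannabinoids reduce transmitter release. In WT samples it read 6.91, 7.04, 6.96 and 6.31 in controls, 6.55, 6.17, 6.31 and 6.52 at day 2, and 6.84, 6.53, 6.99 and 6.63 at day 5. Among KO samples, controls read 7.04, 6.95, 7.05 and 7.23, day 2 samples 6.29, 6.71, 6.73 and 5.87, and day 5 samples 7.31, 6.79, 6.85 and 6.60. At day 2 all samples but 1 control lay apart, since WT control replicate 4 fell among the lesioned samples, and at day 5 the groups overlapped. *Cnr1* fell by 0.54 (SE 0.14, adjusted p = 0.00673) at day 2, and differed by -0.12 (95% CI -0.41 to 0.17, adjusted p = 0.634) at day 5. Day 5 minus day 2 was 0.42 (SE 0.14, adjusted p = 0.11), so the days were not shown to differ. The day 2 difference was -0.81 (adjusted p = 0.0102) in samples with a partner of the same time point and -0.27 (adjusted p = 0.455) in the others. At day 5 it was 0.03 (adjusted p = 0.942) and -0.27 (adjusted p = 0.393).

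*Npy1r* and *Npy2r* encode the Y1 and Y2 receptors for neuropeptide Y, and Y2 is known as a presynaptic receptor. *Npy2r* read 8.19, 8.03, 8.06 and 8.38 in WT controls, 8.64, 8.50, 7.87 and 8.67 at day 2, and 8.20, 8.58, 8.57 and 8.45 at day 5. In KO samples it read 8.22, 7.91, 8.15 and 7.89 in controls, 8.31, 8.44, 8.95 and 8.64 at day 2, and 8.49, 8.55, 8.48 and 8.41 at day 5. Every lesioned KO sample lay above every KO control, where the KO groups were apart in 14.3% of all gene names at day 2 and 20.2% at day 5. In KO alone the rise passed at day 2 (adjusted p = 0.0336) and not at day 5 (adjusted p = 0.0855). In WT the groups overlapped through 1 low sample at each day. *Npy2r* rose by 0.40 (SE 0.11, adjusted p = 0.0148) at day 2 and 0.36 (SE 0.11, adjusted p = 0.0245) at day 5, on 3 of 3 slides. It passed in neither partner class alone, with differences of 0.26 to 0.55 at day 2 and 0.36 to 0.37 at day 5 and a lowest adjusted p of 0.122.

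*Npy1r* read 5.62, 5.43, 6.06 and 5.84 in WT controls and 6.57, 5.62, 6.79 and 6.66 at day 2, and 5.53, 6.05, 5.37 and 5.58 in KO controls and 6.30, 5.19, 6.11 and 6.07 at day 2. At day 5 its values ran from 5.26 to 6.23. In each genotype 3 of 4 day 2 samples were above all controls of that genotype, and replicate 2 was not, lying among the controls in WT and below them in KO. The difference was 0.48 (95% CI 0.09 to 0.87) at day 2 and missed the threshold (adjusted p = 0.0775), and it was -0.08 (95% CI -0.48 to 0.31, adjusted p = 0.833) at day 5. Within the partner classes it was 0.42 (adjusted p = 0.433) and 0.54 (adjusted p = 0.292) at day 2, and -0.18 and 0.01 at day 5.

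*Galr1* encodes the inhibitory galanin receptor. In WT samples it read 5.78, 6.15, 5.64 and 5.47 in controls, 5.31, 4.17, 4.34 and 4.81 at day 2, and 5.14, 4.73, 4.59 and 4.99 at day 5. The KO samples had 6.26, 5.75, 5.99 and 5.91 in controls, 4.93, 5.60, 6.01 and 4.76 at day 2, and 5.70, 5.19, 5.25 and 4.41 at day 5. The WT groups did not overlap at either day, where 16.5% of all gene names were apart at day 2 and 19.8% at day 5. Among KO samples 1 day 2 value was within the controls. *Galr1* fell by 0.88 (SE 0.21, adjusted p = 0.00404) at day 2 and by 0.87 (SE 0.21, adjusted p = 0.00376) at day 5. Under the 43 alternatives it differed by -1.24 to -0.33 at day 2 and -1.12 to -0.34 at day 5, and lost its call in 3 and 2 of them. Within the slides it differed by -1.11 to -0.0014 at day 2, the latter on slide 1, and by -1.23 to -0.76 at day 5. The differences were -1.24 (adjusted p = 0.00326) at day 2 and -0.62 (adjusted p = 0.0597) at day 5 in samples with a partner of the same time point, and -0.51 (adjusted p = 0.36) and -1.12 (adjusted p = 0.0311) in the others. *Galr2*, the galanin receptor that raises intracellular calcium, was well above background in 3 of 24 samples, and the interval of its difference ran from -0.41 to 0.41 at day 2 and from -0.41 to 0.42 at day 5, with no fold to give. Within the partner classes the *Galr2* difference was -0.13 and 0.13 at day 2 and 0.06 and -0.05 at day 5.

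*Cckbr* encodes the cholecystokinin B receptor, which binds cholecystokinin and gastrin. Its brightest probe, A_52_P596375, read 4.47, 5.37, 4.52 and 6.36 in WT controls, 9.76, 9.86, 9.54 and 9.39 at day 2, and 10.87, 10.55, 10.64 and 10.61 at day 5. In KO samples it read 5.13, 4.13, 4.85 and 6.54 in controls, 9.92, 9.70, 8.92 and 9.91 at day 2, and 9.95, 10.61, 10.96 and 10.54 at day 5. Every day 2 sample lay above every control and every day 5 sample above every day 2 sample. *Cckbr* rose by 4.45 (SE 0.30, adjusted p = 9.65e-10) at day 2 and by 5.42 (SE 0.30, adjusted p = 3.7e-11) at day 5, a 21.9-fold and a 42.8-fold higher intensity. The size of the fold depends on controls near the background, since 5 of 8 controls were well above it.

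The *Cckbr* rise was seen on each slide and in both partner classes. It was 3.68 to 4.84 at day 2 and 4.62 to 5.79 at day 5 within the 3 slides. Controls that shared an array with another control read 4.13 to 4.85 and those that shared one with a lesioned sample 5.13 to 6.54, and the rise was 5.32 at day 2 and 6.11 at day 5 in samples with a partner of the same time point and 3.59 and 4.73 in the others. The second probe, A_51_P506201, read 3.62 to 4.57 in controls, 4.84 to 5.60 at day 2 and 5.58 to 6.17 at day 5. It rose by 1.20 (SE 0.12, adjusted p = 5.62e-07) at day 2 and by 1.79 (SE 0.12, adjusted p = 1.15e-09) at day 5, with 3 of 8 controls well above background. Both probes thus moved in the same direction and by different amounts.

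**Figure D4:**
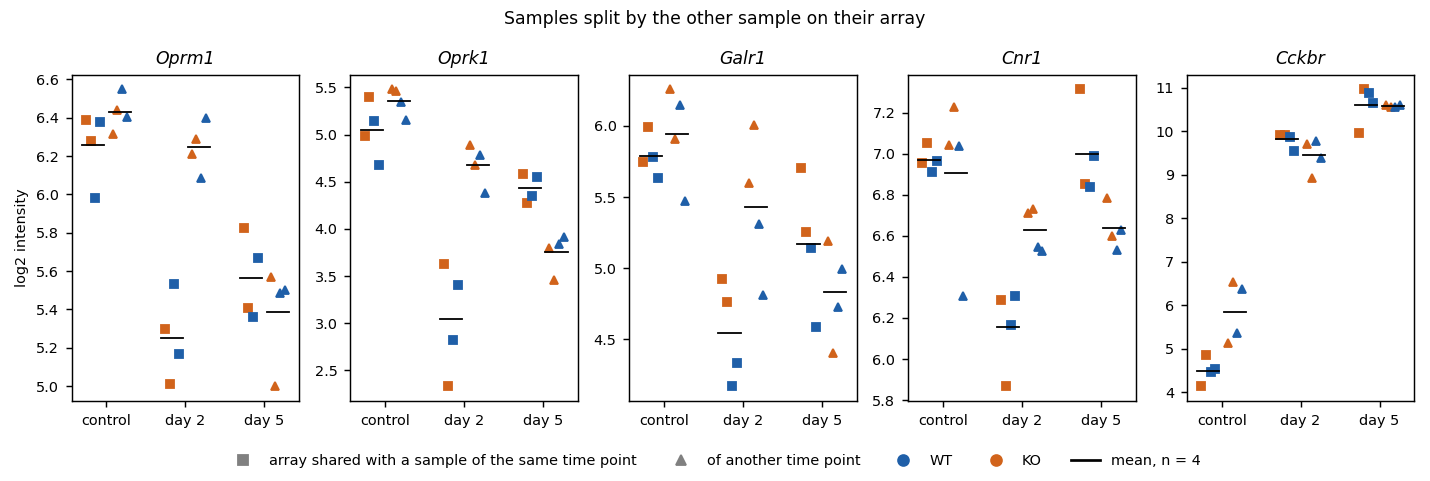
Log2 intensity (vertical axes, each panel with its own range) of 5 receptor genes at each time point, split by whether the other sample on the array was of the same (squares) or another time point (triangles), for WT (blue) and KO (orange), with means of 4 samples as bars. At day 2 the Oprm1, Oprk1 and Cnr1 values of samples with a day 2 partner lie below those of the others, and Cckbr controls with a lesioned partner lie above the other controls.

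From day 2 to day 5 none of the 10 genes was called, against 3.28% of all gene names (2.24% higher and 1.04% lower), while 3 had an unadjusted p below 0.05 in limma (*Cckbr*, *Cnr1* and *Npy1r*). *Cckbr* was 0.97 higher at day 5 (95% CI 0.35 to 1.59, adjusted p = 0.0891), and its second probe 0.59 higher (SE 0.12, adjusted p = 0.00915). *Npy1r* was -0.56 from day 2 to day 5 (95% CI -0.96 to -0.17, adjusted p = 0.122). *Cckbr* was the 1 gene whose day 2 and day 5 samples did not overlap, against 1.21% of all gene names. Without the library labelled KO control replicate 4, *Cckbr* was called. That library is in neither of these groups, so it acts only through the spread estimated over all groups and the adjustment.

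Within a genotype fewer genes passed. In WT, 3 of 10 were called at day 2 (*Cckbr*, *Oprl1* and *Galr1*) against 11% of all gene names (5.23% higher and 5.77% lower), and 4 at day 5 (these and *Oprm1*) against 13.9% (6.41% and 7.45%). In KO, 5 were called at day 2 (*Cckbr*, *Npy2r*, *Oprl1*, *Oprk1* and *Cnr1*) against 11.8% (5.5% and 6.27%), and 3 at day 5 (*Cckbr*, *Oprl1* and *Oprm1*) against 12.7% (6.06% and 6.64%). The groups did not overlap in 3 genes in WT at day 2 (16.5% of all gene names) and 5 at day 5 (19.8%), and in 5 in KO at day 2 (14.3%) and 6 at day 5 (20.2%). The WT day 5 calls of *Galr1* (adjusted p = 0.0486) and *Oprm1* (adjusted p = 0.0498) were at the threshold, and neither held without the library labelled KO control replicate 4. That library is in no WT group, so there it acts only through the spread estimated over all groups and the adjustment. The WT day 5 count fell to 2 in 12 of 24 fits with 1 sample left out. Without that library 2 calls were left in WT at day 5, 2 in KO at day 2 and 2 in KO at day 5. These reduced counts stand without the share of all gene names. In each of these remainders the calls were *Cckbr* and *Oprl1*. A call in 1 genotype alone does not show that the genotypes differed, and the smallest unadjusted p for the interaction among the 10 genes was 0.203 in limma, for *Galr2* (adjusted p = 1).

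The study asked whether NFIL3, a transcriptional repressor, shapes the response to injury, so KO and WT were compared at each time point. No receptor gene was called in controls (0% of all gene names), at day 2 (0.0146%) or at day 5 (0.0109%), and none had a time by genotype interaction (0%). In controls and for the interaction no probe on the array was called, so these tests missed *Nfil3* itself. Its mean was 8.65 in WT controls and 4.67 in KO controls. The absence of calls therefore does not show that the genotypes were alike. With an unadjusted p below 0.05 in limma, 0 receptor genes were found in controls, 1 at day 2, 0 at day 5 and 0 for the interaction. The 1 was *Galr1*, which was 0.67 higher in KO than in WT at day 2 (95% CI 0.06 to 1.28, adjusted p = 1), with overlapping groups. *Npy1r* at day 2 differed by -0.49 (95% CI -1.05 to 0.06) and *Galr2* at day 5 by -0.52 (95% CI -1.11 to 0.06).

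The intervals say what size of genotype effect remains possible. For *Oprl1* the KO minus WT intervals ran from -0.20 to 0.47 in controls, -0.37 to 0.29 at day 2 and -0.24 to 0.42 at day 5. For *Oprm1* they ran from -0.53 to 0.59, -0.66 to 0.47 and -0.62 to 0.51. For *Cckbr* they were wider, from -0.90 to 0.86, -0.90 to 0.85 and -1.03 to 0.73. Without the library labelled KO control replicate 4, the *Cckbr* difference in controls moved from -0.02 to -0.48 (95% CI -1.26 to 0.30), while those of *Oprl1* and *Oprm1* were 0.17 (95% CI -0.19 to 0.54) and 0.00 (95% CI -0.63 to 0.63). The *Galr1* difference at day 2 was then 0.67 (95% CI 0.04 to 1.29), and no receptor gene was called. Differences inside these intervals remain possible with 4 samples per group. KO and WT samples overlapped in all 10 genes in controls, at day 2 and at day 5. Of all gene names, 1.17% were apart in controls, 1.61% at day 2 and 2.49% at day 5.

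**Figure D5:**
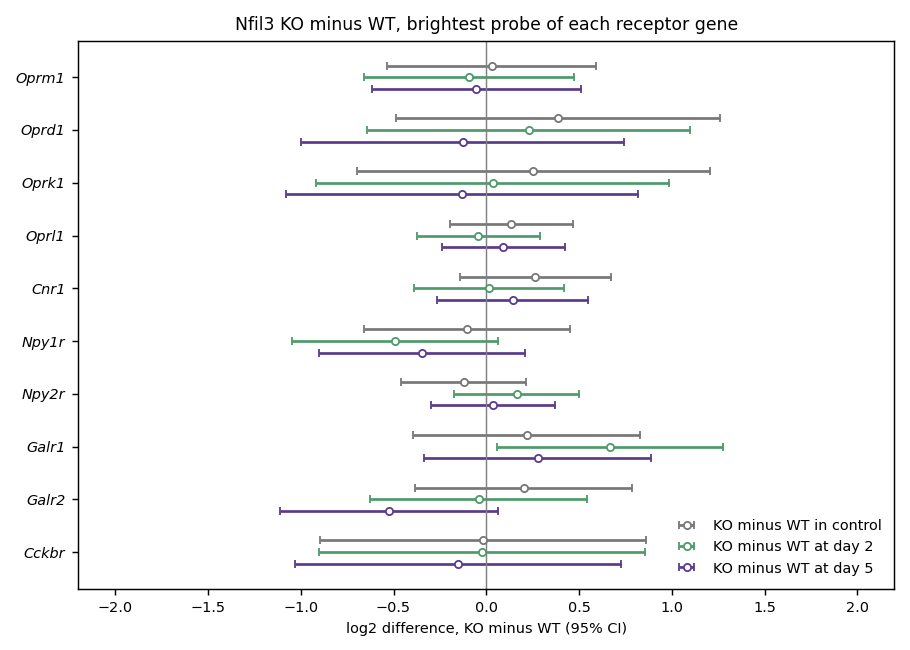
Log2 difference of KO minus WT (horizontal axis) for the brightest probe of each receptor gene in controls (grey), at day 2 (green) and at day 5 (purple), with 95% confidence intervals. All circles are open because no adjusted p was below 0.05, and the Galr1 interval at day 2 does not include 0.

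The peptides that bind these receptors were looked at next. Of 11 ligand genes, 3 were higher at both days and none lower, where 9.48% of all gene names were higher at day 2 and 10.2% at day 5. *Npy*, encoding neuropeptide Y, rose by 4.92 (SE 0.68) at day 2 and 6.85 (SE 0.68) at day 5, beside the small rise of *Npy2r*. *Gal*, encoding galanin, rose by 3.74 (SE 0.21) and 4.38 (SE 0.21), beside the fall of *Galr1*. *Pomc*, the precursor of beta-endorphin, rose by 0.69 (SE 0.12) and 1.00 (SE 0.12). The other opioid precursors did not pass, with *Penk* at 0.59 and 0.44, *Pdyn* at -0.12 and -0.31, and *Pnoc*, the nociceptin precursor, at -0.30 and 0.10. Nor did the ligands of *Cckbr*, with *Cck* at 0.35 (adjusted p = 0.107) and 0.14 (adjusted p = 0.606) and *Gast* at -0.25 and -0.16. *Pyy*, *Ppy* and *Galp* lay between -0.21 and 0.23.

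Of 7 enzymes that make or break down endocannabinoids, 3 were lower at both days and none higher, where 12.7% of all gene names were lower at day 2 and 13% at day 5. All 3 are hydrolases. *Mgll*, which degrades 2-arachidonoylglycerol, fell by 0.58 (SE 0.05) and 0.35 (SE 0.05), *Abhd12* by 0.42 (SE 0.08) and 0.39 (SE 0.08), and *Faah*, which degrades anandamide, by 0.36 (SE 0.10) and 0.29 (SE 0.10). The synthetic enzymes *Dagla*, *Daglb* and *Napepld* did not pass, nor did the hydrolase *Abhd6*. Of 6 other receptors of the same families, 1 was higher at both days, against 9.48% and 10.2% of all gene names. *Cckar*, the second cholecystokinin receptor, rose by 0.55 (SE 0.12, adjusted p = 0.00284) and 1.28 (SE 0.12, adjusted p = 1.79e-07). *Npy5r*, *Npy6r*, *Ppyr1*, *Galr3* and *Cnr2* did not pass at either day.

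Downstream of the receptors, 10 genes of inhibitory G proteins gave 2 higher and 4 lower at day 2 and 2 of each at day 5, against 9.48% higher and 12.7% lower of all gene names at day 2 and 10.2% and 13% at day 5. *Gnao1*, encoding Go alpha, fell by 0.70 (SE 0.13) and 0.77 (SE 0.13) and *Gnai1* by 0.42 (SE 0.07) and 0.39 (SE 0.07), whereas *Gnai3* rose by 0.39 and 0.35 and *Gng2* by 0.33 and 0.65. *Gnaz* fell by 0.36 and *Gnb1* by 0.31 at day 2, and neither passed at day 5. Of 6 channels that such receptors open or close, 2 were lower at both days, against 12.7% and 13% of all gene names, both of them subunits of inwardly rectifying potassium channels. *Kcnj3* fell by 0.72 (SE 0.15) and 0.91 (SE 0.15) and *Kcnj9* by 0.68 (SE 0.10) and 0.63 (SE 0.10). The presynaptic calcium channel genes *Cacna1a* and *Cacna1b* did not pass.

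Of 12 receptor kinases, arrestins, RGS proteins and *Cnrip1*, 3 were higher and 2 lower at day 2, and 4 higher and 3 lower at day 5, where 22.1% and 23.2% of all gene names were called. *Adrbk1* and *Adrbk2*, the kinases also called GRK2 and GRK3 that desensitize opioid receptors, fell by 0.65 and 0.58 at day 2 and by 0.82 and 1.01 at day 5, where 1 sample had no value for *Adrbk2*. *Arrb1*, encoding beta-arrestin 1, rose by 0.56 and 0.72, *Grk6* by 0.77 and 0.65, and *Rgs19* by 0.65 and 0.62. At day 5 *Rgs17* rose by 0.37 and *Grk5* fell by 0.26, and neither passed at day 2. Of 5 chromatin repressors studied at opioid receptor genes, 3 were called at day 2 and 1 at day 5. *Rest* rose by 0.25 (adjusted p = 0.0415) and 0.29 (adjusted p = 0.0207), and *Rcor1* and *Dnmt3a* fell by 0.17 and 0.25 at day 2 and did not pass at day 5. No gene of these lists was called between KO and WT.

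Across the 24 samples the falling receptors varied together, which is given as a description since the samples share time points and arrays. Pearson's r over 24 samples was 0.84 between *Oprm1* and *Oprk1*, 0.84 between *Oprk1* and *Galr1*, 0.81 between *Oprk1* and *Oprl1*, and -0.92 between *Oprl1* and *Cckbr*. For *Cnr1*, lower at day 2 only, r with the other falling receptors ran from 0.52 (*Oprm1*) to 0.76 (*Oprk1*). *Npy1r* and *Npy2r* had an r of 0.10. Among 14488 genes well above background in all samples, those most like *Oprl1* were *Arhgef4* (r = 0.98), *Omg* (0.98) and *Rimkla* (0.97), and those most like *Oprm1* were *NP060941* (0.95), *AF529169* (0.95) and *Robo2* (0.94). The closest to *Cnr1* were *Kcnc1* (0.90), *Tmem60* (0.89) and *4833415N18Rik* (0.88), to *Npy2r* *Prep* (0.85), *Socs2* (0.84) and *3110035C09Rik* (0.83), and to *Npy1r* *Eif4h*, *Mpp2* and *Slc25a1* (0.71, 0.71 and 0.70).

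Promoters were searched because NFIL3 binds DNA. RefSeq (GRCm38.p6) gave 14 windows of 300 bases around the start sites of 8 of the 10 genes, and none for *Oprk1* and *Galr1*. The NFIL3 site, searched on both strands as TTATGTAA or TTACGTAA, was in 0 of the 14 windows and in 1.06% of all 32851 windows. The cyclic AMP response element TGACGTCA was in 0 of 14 and 1.79% of all, and the AP-1 site, TGAGTCA or TGACTCA, in 1 of 14, that of *Npy1r*, and in 5.2% of all. A window without a match says only that these letters are absent from it.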

How the data were processed

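Each array carried different samples in its Cy3 and Cy5 channels, which were used as single colors (12 arrays on 3 slides, 24 samples, 2 per group and dye). The authors deposited Feature Extraction 10.7.3.1 output, with a foreground and background intensity per spot and channel, not normalized. Following the methods, Edwards background correction (mean foreground, median background) and quantile normalization of the channels came first. Control and outlier spots were left out, spots of a probe were averaged, and log2 values were fitted with 1 mean per group (R 4.3.3, limma 3.58.1, statmod 1.5.0). P-values were adjusted over 41174 probes. Depth on arrays is the signal over background, and their number limits the precision. The scripts were tested on simulated data for day 5 minus control, with 200 of 40895 probes changed and independent normal noise. Of probes changed by 0.5, 1 and 2 log2 units, 27%, 64% and 88% were recovered, beside 0, 4 and 17 unchanged probes called. In the data 9155 probes were called and samples shared arrays, so these rates do not give the recovery in the real comparison. Values are given for the members, the genes of the pathway lists that passed, all ligands, *Nfil3*, and the 3 genes most alike to each member well above background in every sample, and cell type markers are given by counts. *Atf3*, *Sprr1a* and the skeletal muscle and spinal cord markers were named after their values were seen. Members and lists were chosen with earlier results of these data known. The alternatives were other background corrections, normalization, foreground, filters, probe averaging, dye, slide, array and replicate terms, an eBayes trend, array partners and samples left out. The SAMR and globaltest analyses were not run here. One marker list is not reported here.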

Additional observations from a re-analysis of the deposited data

Results flagged for a closer look

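Of 84 groups of 4 samples (14 probes in 6 groups), 4 held a sample whose gap to the nearest of the others took up nearly the whole range of the group, and chance alone gives about 1 in 20 groups. *Oprm1* probe A_51_P118688 read 5.77 in KO day 5 replicate 4 against 4.84 to 4.87 in the other 3. *Oprk1* read 4.99 in KO control replicate 2 against 5.40 to 5.48. *Oprl1* probe A_52_P99678 read 7.69 in WT day 2 replicate 1 against 7.51 to 7.53, a gap that is small beside the fall from control. *Galr2* read 2.93 in KO day 5 replicate 4 against 4.04 to 4.09, none of them well above background.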

How the results depend on the processing

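Under 43 alternatives (24 of them leaving out 1 sample), *Cckbr* and *Oprl1* kept their direction and passed at both days in all, and no receptor gene was called for KO minus WT or the interaction. The share of all probes called also moved with the setting. At day 2 it was 13.2% with a same partner and 2.88% with another, and at day 5 9.22% and 9.72%. Receptor counts here and without KO control replicate 4 stand without that share, so a changed count is not a result about the receptors. With array and dye as fixed terms 4 genes were called at day 2, with controls sharing an array with a control 3, and with a partner of another time point 3. At day 5 these were 2 with controls sharing an array with a control and 3 with a partner of the same time point. Day 5 minus day 2 gave 2 without background correction, with array and dye or with another partner, and 1 with normexp, averaged probes, an eBayes trend or control partners. WT day 2 gave 1 with another partner. WT day 5 gave 2 with median foreground, averaged probes, control partners, a same partner, or KO control replicate 4 placed in KO day 5. KO day 2 gave 3 with array and dye, 2 with control partners or KO control replicate 4 moved, and 1 with another partner. KO day 5 gave 6 without background correction, and 5 with normexp, the background filter, slide, array as random or fixed term, or the trend.

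Samples with the same replicate number had an r of deviations of -0.06 to 0.21 (median 0.07), and those with other numbers -0.23 to 0.21 (median -0.03). Replicates 1 and 2 were Cy3 and 3 and 4 were Cy5, so pairing by number and dye cannot be told apart. The replicate block changed KO day 2 from 5 to 3 calls.

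Leaving out 1 sample gave 6 to 8 calls at day 2, 5 to 6 at day 5, 0 to 1 for day 5 minus day 2, 2 to 4 in WT and 2 to 6 in KO at day 2, and 2 to 4 in either genotype at day 5. WT day 5 fell to 2 without WT control 2 or 3, any WT day 5 sample, any KO control, or KO day 5 sample 2 or 3. KO day 2 fell to 2 or 3 without any KO control or KO day 2 sample 1 or 4. Day 5 minus day 2 gained *Npy1r* without WT or KO day 2 sample 2. *Oprm1* at day 2 lost its call without WT control 2 or 3, WT day 2 sample 2 or 3, KO control 4, or KO day 2 sample 1 or 4 (adjusted p 0.0513 to 0.0705). *Npy2r* at day 5 lost it without WT control 2, WT day 5 sample 2, or KO control 2 or 4 (up to 0.0513).

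Signs turned where no difference passed. *Galr2* at day 2 was 0.040 without background correction, 0.0064 with normexp, 0.14 with processed signals, 0.086 with median foreground, 0.011 with slide, 0.079 with array as random term, 0.37 with array and dye, 0.024 with KO control replicate 4 moved, and 0.13 with another partner. At day 5 it was -0.0072, -0.047, -0.0085 and -0.051 without background correction, with processed signals, control partners and another partner. With 1 sample left out it ran from -0.14 to 0.062 at day 2 and -0.076 to 0.15 at day 5. *Oprd1* at day 2 was 0.090 with array and dye and 0.14 with another partner, *Npy1r* at day 5 0.087 and 0.0084, and *Cnr1* at day 5 0.027 with a same partner. The causes were not tested.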
